A study of Homo sapiens with 6 samples.

Results

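STAT3 is a transcription factor that cytokines of the interleukin-6 family switch on. These cytokines bind receptor chains at the cell surface that share the signal-transducing chain gp130, encoded by IL6ST, and the Janus kinases held on the receptors phosphorylate STAT3, which then pairs, enters the nucleus and binds DNA. SOCS3, itself a target gene of STAT3, blocks the kinases at gp130, and PIAS3 holds activated STAT3 off DNA, so the pathway limits itself. In breast cancer cells, including triple-negative ones, STAT3 is often kept active by cytokines the cells secrete themselves.

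The genes described here are 10 members of this pathway, chosen by name: the transcription factor STAT3, the kinases JAK1, JAK2 and TYK2, the receptor chains IL6R, IL6ST, LIFR and OSMR, and the inhibitors SOCS3 and PIAS3. They are 10 of the 27745 genes in the count table, found by Ensembl identifier, and all 10 were among the 15372 genes that passed the filter on low counts. RNA-seq measured transcripts only, so phosphorylated STAT3, the active form, was not measured. MDA-MB-231 is an established triple-negative breast cancer cell line, and the libraries came from such cells carrying a lentiviral short hairpin RNA (shRNA). Cells with sh-TRC, the control hairpin, were compared with cells with sh-MIR100HG-1 or sh-MIR100HG-2, which target MIR100HG, a long non-coding RNA. All groups were infected with lentivirus and, by the study's methods, collected 72 h later, so no group was free of virus. Each group had 2 samples of the same line, and the study calls those of each knockdown group biological replicates. For the control samples its text does not state this.

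Total counts ran from 43804736 to 64588388 per sample. MIR100HG itself (chr11:121899035-122427429, minus strand, GRCh37) stood at 41.9 and 58.5 CPM (counts scaled to library size) in the control samples, at 15.2 and 13.2 with sh-MIR100HG-1 and at 16.6 and 10.4 with sh-MIR100HG-2. Its log2 fold change (log2FC) against control was -1.86 ± 0.26 (SE) over both shRNAs, which did not pass edgeR's quasi-likelihood test after adjustment over all genes (adjusted p = 0.381). It passed edgeR's likelihood ratio test (adjusted p = 1.21e-06) and DESeq2 (adjusted p = 5.1e-07), and over 13 alternatives its adjusted p ran from 2.8e-10 to 0.933. Markers that this line is known for (VIM, CD44, AXL and CAV1) summed to between 3952 and 5000 CPM, and those it is known to lack or hold at low level (ESR1, PGR, CDH1 and EPCAM) to between 6.02 and 19.5 CPM. The endothelial marker CDH5 reached at most 0.160 CPM, leukocyte markers (PTPRC, CD3E and CD14) summed to at most 4.76 CPM and the fibroblast markers PDGFRB and DCN to at most 19.2 CPM. Neither control library lay nearest to the other control library. Over the 15372 genes tested, the median absolute log2 difference between the control samples was 0.317, while control replicate 1 lay 0.213 from sh-MIR100HG-1 replicate 1 and control replicate 2 lay 0.273 from sh-MIR100HG-2 replicate 1. What sets the control libraries apart was not tested. Values with a control library left out are given for some genes only. Where none is given, the result may still depend on a control library.

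A short RNA can act on transcripts through its seed, bases 2 to 8 from its 5′ end, so the 3′UTRs of the 10 genes were searched for matches to the seeds of the hairpins and of microRNAs from the target gene. Any effect of a match was not tested. MIR100HG hosts microRNAs in its introns, among them miR-125b. Its mature sequence (RefSeq, GRCh38.p14) and the guide strands of the hairpins, read as the reverse complement of each hairpin's target, are given here with the seed in capitals.
hsa-miR-125b-5p: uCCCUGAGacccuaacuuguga
sh-MIR100HG-1 guide: aTTTAAGTacaaacagaggaa
sh-MIR100HG-2 guide: tTTATTCTgtaggtcactctc
The 7 bases that pair with the miR-125b seed, CTCAGGG on the transcript's strand, occurred in 14.7% of 19085 annotated 3′UTRs, taken from a later GENCODE release on GRCh37 than the one used for counting. Among the 10 genes they occurred in 4: once in STAT3, once each in IL6ST and LIFR, and at 2 places in IL6R. Over both shRNAs, STAT3 and IL6R had the largest differences from control among the members with a match. Their matches are shown for that reason, with the pairing bases in capitals.
STAT3 (chr17:40466317-40466337, minus strand, GRCh37): tgtctggttgagCTCAGGGaa
IL6R (chr1:154437937-154437957, plus strand, GRCh37): atgccagcttatCTCAGGGgt
IL6R (chr1:154438465-154438485, plus strand, GRCh37): ataatacagtatCTCAGGGcc
Long 3′UTRs hold such matches often: among 3′UTRs of similar length the share was 22.2% for STAT3 and 28.4% for IL6R. The seed match of let-7a, CTACCTC, occurred once among the members, in OSMR, against 9.7% of all 3′UTRs. That of miR-100, TACGGGT, occurred in 0 of them, against 1.06% of all 3′UTRs. The microRNAs themselves were not measured in these libraries, and a match is only a run of letters. By qPCR, the study reports no change in miR-100, miR-125b or let-7a when MIR100HG was overexpressed, in MDA-MB-231 and in BT549 cells. That was overexpression, not the knockdown described here.

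The genes of the pathway differed widely in level. To compare genes, CPM was divided by the exon length in kilobases (RPKM). In control cells, gp130 (IL6ST) was the most abundant of the 10 at 46.2 ± 26.8 RPKM (SD, n = 2), followed by STAT3 at 30.6 ± 3.91, SOCS3 at 25.2 ± 3.20, OSMR at 24.7 ± 1.72, JAK1 at 21.1 ± 0.521, TYK2 at 18.2 ± 0.681 and PIAS3 at 10.4 ± 0.264. The cytokine receptor LIFR came next at 3.95 ± 1.26 RPKM, then the kinase JAK2 at 2.44 ± 0.541. The IL-6 receptor chain IL6R was the least abundant, at 0.535 ± 0.202 RPKM. Of the neighbours in this order, IL6ST and STAT3 overlapped in their samples, as did SOCS3 and OSMR, and the other neighbours did not. With sh-MIR100HG-1 the genes kept this order of mean levels. With sh-MIR100HG-2, STAT3 had the highest mean level at 58.1 ± 8.44 RPKM and SOCS3 the next at 42.7 ± 0.772, both above IL6ST at 33.0 ± 3.21, and IL6R at 2.57 ± 0.0342 stood above JAK2 at 1.33 ± 0.479.

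**Figure D1:**
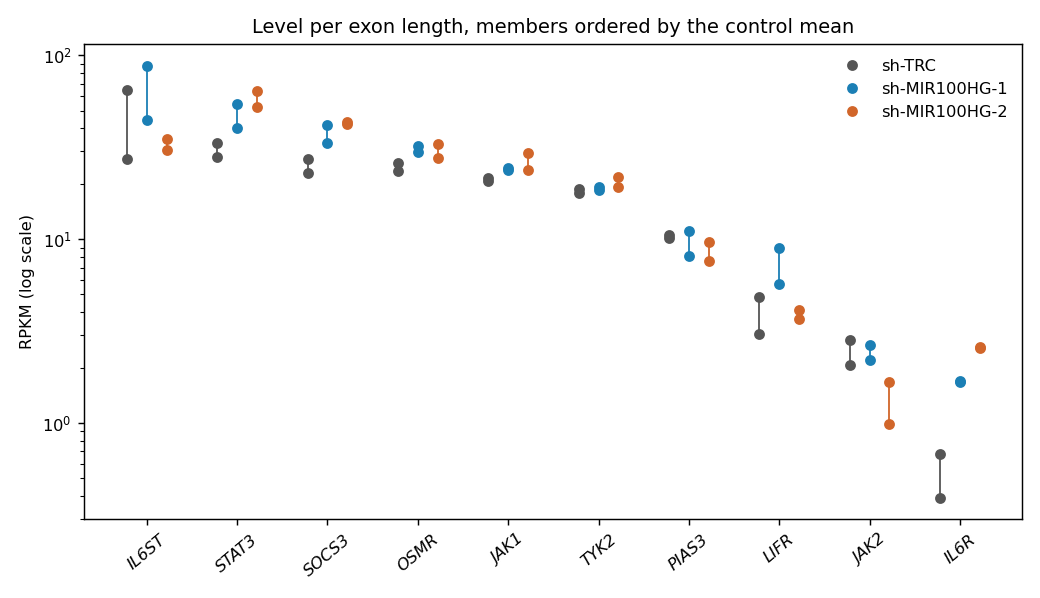
Level of each gene per exon length (RPKM, log scale) in the 6 samples, with genes ordered by their control mean, points for samples and lines joining the samples of a group. IL6ST, STAT3 and SOCS3 lie at the top, IL6R lies lowest in control cells at 0.535 RPKM on average, and in the sh-MIR100HG-2 samples it lies above JAK2.

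Against control, 3 of the 10 genes stood out in both knockdown groups: IL6R, STAT3 and SOCS3 were higher in each of the 4 knockdown samples than in either control sample. The adjusted p of all 3 missed the threshold, as it did for every gene in the table: edgeR's quasi-likelihood test called 0 of the 10 members and 0% of all genes at an adjusted p at or below 0.05. At an unadjusted p under 0.05 it gave 3 of the 10 members, all higher, where 7.68% of all genes tested met that mark in either direction. In 5 of the 10 (STAT3, JAK1, IL6R, OSMR and SOCS3) all knockdown samples lay above both control samples, and in 0 of them below, where 17.5% of all genes did not overlap between the groups. The median log2FC of the 10 was 0.29, beside -0.04 over all genes tested. The 10 genes, like the pathway lists below, were chosen with earlier results of these data known, so their counts beside all genes are descriptive. With edgeR's likelihood ratio test or with DESeq2, 1 of the 10 genes, IL6R, was called, and 109 and 130 genes were called in all. Without a filter on low counts, the quasi-likelihood test called 2 of the 10, IL6R and STAT3, and 392 genes in all.

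IL6R (ENSG00000160712.12_1, chr1:154377669-154441926, plus strand, GRCh37) encodes the chain that binds interleukin-6 and brings it to gp130. Its level was 4.37 and 2.53 CPM in the control samples, 10.9 and 10.8 CPM with sh-MIR100HG-1, and 16.7 and 16.4 CPM with sh-MIR100HG-2. The 3 groups formed 3 separate pairs of values, and the lowest knockdown sample lay above the higher control sample. Over both shRNAs the level was 3.89-fold that of control, a log2FC of 1.96 ± 0.28 (SE), with a 95% interval from 1.33 to 2.59. By p-value it ranked 5 of the 15372 genes in edgeR's quasi-likelihood test, at an adjusted p = 0.381. DESeq2 gave an adjusted p = 9.5e-08 and edgeR's likelihood ratio test an adjusted p = 1.29e-04. The adjusted p over all alternatives for this comparison ran from 9.5e-08 to 0.933, with 3 of the 13 at or below 0.05. With control replicate 1 left out the log2FC was 2.41, and with control replicate 2 left out it was 1.62.

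The counts behind IL6R are the smallest among the 10 genes in control cells, 235 and 149 reads there against 459 to 822 reads with knockdown. In each sample, IL6R was also set against IL6ST, its partner chain, per exon length. The ratio of IL6R to IL6ST was 0.0104 and 0.0144 in control samples, 0.0379 and 0.0191 with sh-MIR100HG-1, and 0.0736 and 0.0829 with sh-MIR100HG-2. It was higher in each knockdown sample than in both control samples, and highest in the samples with sh-MIR100HG-2. Even there, gp130 was by far the more abundant chain.

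STAT3 (ENSG00000168610.14_2, chr17:40465342-40540586, minus strand, GRCh37) stood at 245 and 294 CPM in the control samples, 356 and 482 CPM with sh-MIR100HG-1 and 459 and 564 CPM with sh-MIR100HG-2. Neither control sample reached the lowest of the 4 knockdown samples, and the knockdown groups overlapped with each other. The log2FC over both shRNAs was 0.78 ± 0.20 (SE), or 1.72-fold, with a 95% interval from 0.31 to 1.25, and the gene ranked 179 by p-value (adjusted p = 0.476, edgeR quasi-likelihood). Taken alone, sh-MIR100HG-1 gave a log2FC of 0.64 and sh-MIR100HG-2 one of 0.92. Without sh-MIR100HG-1 replicate 2 the former was 0.39 (unadjusted p = 0.242, edgeR quasi-likelihood). The log2FC over both shRNAs ran from 0.65 to 0.92 as each library was left out in turn, the lowest of these without control replicate 1.

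SOCS3 (ENSG00000184557.4_2, chr17:76352859-76356158, minus strand, GRCh37), the feedback inhibitor, stood at 62.6 and 75.0 CPM in the control samples, 91.7 and 114.9 CPM with sh-MIR100HG-1, and 118.2 and 115.2 CPM with sh-MIR100HG-2. The samples with knockdown were again all above control. The log2FC over both shRNAs was 0.67 ± 0.19 (SE), or 1.60-fold, with a 95% interval from 0.24 to 1.11 (adjusted p = 0.503, edgeR quasi-likelihood). Its unadjusted p was 0.00831, and without control replicate 1 it was 0.0679. Both SOCS3 and STAT3 were higher with knockdown. From replicate 1 to replicate 2 of sh-MIR100HG-2 they went opposite ways, STAT3 from 459 to 564 CPM and SOCS3 from 118.2 to 115.2 CPM. The ratio of SOCS3 to STAT3 per exon length was 0.823 and 0.822 in control samples, 0.830 and 0.769 with sh-MIR100HG-1, and 0.830 and 0.658 with sh-MIR100HG-2. The lowest ratio was in the sample with the most STAT3. Over the 6 samples the correlation of log2 CPM between SOCS3 and STAT3 was 0.97, a value that includes the differences between the groups and a shared normalization. Among 12556 genes compared, 175 had a correlation with STAT3 above 0.95.

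**Figure D2:**
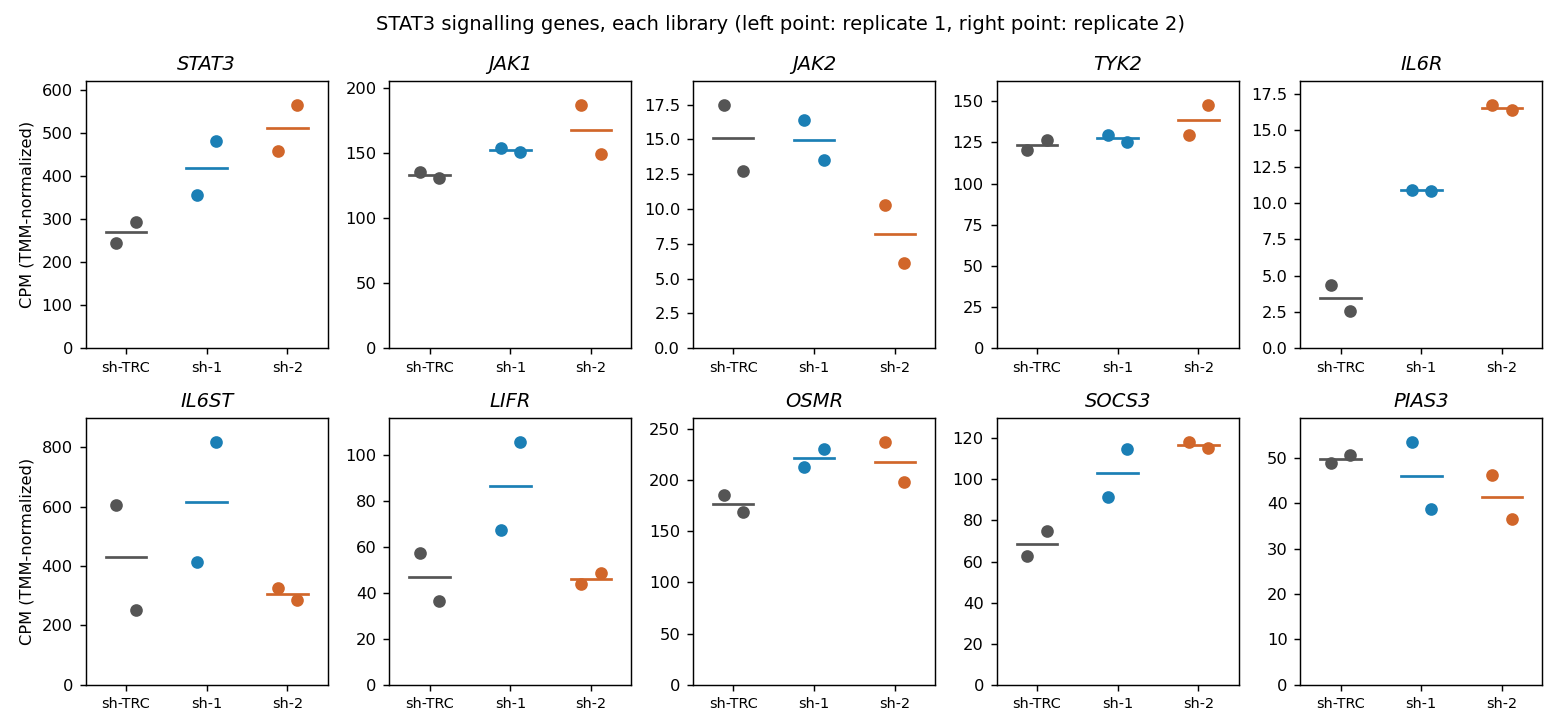
TMM-normalized CPM (vertical axes, each starting at 0) of the 10 genes in the 6 samples, where sh-1 and sh-2 stand for sh-MIR100HG-1 and sh-MIR100HG-2, points are samples and lines are group means. STAT3, IL6R and SOCS3 lie above both control samples in all 4 knockdown samples, while the control samples of IL6ST lie at 605 and 253 CPM.

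The other receptor chains differed less from control than IL6R did over both shRNAs. OSMR (ENSG00000145623.12_2, chr5:38845960-38945698, plus strand, GRCh37), the oncostatin M receptor chain that pairs with gp130, stood at 186 and 168 CPM in control, 213 and 230 CPM with sh-MIR100HG-1 and 237 and 198 CPM with sh-MIR100HG-2. These samples did not overlap with control, but the log2FC of 0.31 ± 0.18 (SE) had a 95% interval from -0.10 to 0.72. Part of OSMR (229 exon bases, 3.19% of its exon length) is shared with the opposite-strand gene RICTOR, and whether reads were counted by strand is not stated.

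IL6ST and LIFR followed each other. IL6ST (ENSG00000134352.19_1, chr5:55230923-55290821, minus strand, GRCh37) stood at 605 and 253 CPM in control, 415 and 817 CPM with sh-MIR100HG-1 and 328 and 285 CPM with sh-MIR100HG-2. LIFR (ENSG00000113594.9_1, chr5:38475065-38608456, minus strand, GRCh37), which binds leukemia inhibitory factor and pairs with gp130, stood at 57.5 and 36.4 CPM in control, 67.5 and 105.5 CPM with sh-MIR100HG-1 and 43.7 and 48.7 CPM with sh-MIR100HG-2. Both genes were highest in sh-MIR100HG-1 replicate 2 and lowest in control replicate 2, and the correlation of their log2 CPM over the 6 samples was 0.89. For both, control replicate 1 and the samples with sh-MIR100HG-1 had higher values than control replicate 2 and the samples with sh-MIR100HG-2.

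The direction for IL6ST changed with the library left out. Over both shRNAs its log2FC was 0.02 ± 0.37 (SE), with a 95% interval from -0.83 to 0.87. Without control replicate 1 the log2FC was 0.78, without control replicate 2 it was -0.48, without sh-MIR100HG-1 replicate 2 it was -0.26 and without sh-MIR100HG-2 replicate 1 it was -0.03. For LIFR the log2FC was 0.43 ± 0.26 (SE) over both shRNAs, 0.80 without control replicate 1, 0.14 without control replicate 2 and 0.25 without sh-MIR100HG-1 replicate 2. With sh-MIR100HG-1 alone LIFR was at 1.84-fold the control level, a log2FC of 0.88 ± 0.30 (SE, unadjusted p = 0.0188 and adjusted p = 0.714, edgeR quasi-likelihood), and this ran from 0.52 without sh-MIR100HG-1 replicate 2 (unadjusted p = 0.166, edgeR quasi-likelihood) to 1.25 without control replicate 1. Without control replicate 2 it was 0.59. With sh-MIR100HG-2 alone its log2FC was -0.02.

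Among the kinases, JAK1 (ENSG00000162434.11_1, chr1:65298912-65432187, minus strand, GRCh37), the one that gp130 signalling depends on most, stood at 136 and 131 CPM in control, 154 and 151 CPM with sh-MIR100HG-1 and 187 and 149 CPM with sh-MIR100HG-2. All 4 knockdown samples were above control by a small margin, with a log2FC of 0.26 ± 0.18 (SE) and a 95% interval from -0.15 to 0.68. TYK2 (ENSG00000105397.13_2, chr19:10461205-10491352, minus strand, GRCh37), a further kinase of the family, was the steadiest of the 10 genes, from 120 to 148 CPM over all samples. Over both shRNAs its samples overlapped with control, with a log2FC of 0.11 ± 0.17 (SE), although the samples with sh-MIR100HG-2 alone, at 129.7 and 147.5 CPM, lay above the control samples at 120.2 and 126.7 CPM.

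JAK2 (ENSG00000096968.13_2, chr9:4984390-5128183, plus strand, GRCh37) stood at 17.4 and 12.7 CPM in control, 16.4 and 13.5 CPM with sh-MIR100HG-1, and 10.3 and 6.09 CPM with sh-MIR100HG-2. Only the samples with sh-MIR100HG-2 lay below both control samples. Against control, that shRNA gave a log2FC of -0.88 ± 0.33 (SE), or 0.542-fold (unadjusted p = 0.0280 and adjusted p = 0.537, edgeR quasi-likelihood), and sh-MIR100HG-1 gave -0.01. The log2FC with sh-MIR100HG-2 was -0.56 without replicate 2 of that group and -1.31 without its replicate 1. As JAK1 and JAK2 went apart, the ratio of JAK1 to JAK2 per exon length was 7.61 and 10.1 in control, 9.18 and 10.9 with sh-MIR100HG-1, and 17.8 and 24.0 with sh-MIR100HG-2.

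The 3′UTR of JAK2 holds 7 bases that pair with the seed of the sh-MIR100HG-2 guide, AGAATAA, at 1 place, which is shown because JAK2 differed with this hairpin.
JAK2 (chr9:5129544-5129564, plus strand, GRCh37): ttgctgtatattAGAATAAat
This stretch lies past the end of JAK2 in the annotation used for counting and inside its 3′UTR in the later release. The same letters occurred in 32.4% of 3′UTRs of similar length, and also in IL6ST (2 places) and LIFR (1 place). The matching bases for the sh-MIR100HG-1 guide, ACTTAAA, occurred in JAK2 at 3 places (2 of them past the counted end). IL6ST held them at 2 places and JAK1, IL6R and LIFR at 1 place each. Of all 3′UTRs, 17.4% held them. Among 3′UTRs of similar length the share was 33.7% for JAK2, 51.1% for IL6ST, 14.1% for JAK1, 40.3% for IL6R and 56.8% for LIFR.

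PIAS3 (ENSG00000131788.15_2, chr1:145575233-145586546, plus strand, GRCh37), the inhibitor that binds activated STAT3, stood at 48.9 and 50.7 CPM in control, 53.5 and 38.7 CPM with sh-MIR100HG-1, and 46.2 and 36.6 CPM with sh-MIR100HG-2. The groups overlapped over both shRNAs, with a log2FC of -0.19 ± 0.21 (SE) and a 95% interval from -0.68 to 0.30. PIAS3 shares 432 exon bases, 8.99% of its exon length, with the opposite-strand gene NUDT17, which had 127 to 298 counts per sample. For a single gene, the exact permutation test of 4 knockdown against 2 control samples has 15 ways to place the labels and cannot go below a two-sided p of 0.0667. STAT3, IL6R, OSMR and SOCS3 reached this smallest value. It lies above 0.05, so the test can call no gene, and no conclusion is drawn from it. The share of all genes that reach it was not computed, but 17.5% of all genes did not overlap between these groups.

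Each shRNA was also compared with control on its own, with the same control samples in both comparisons. With sh-MIR100HG-1, the quasi-likelihood test of edgeR called 0 of the 10 members after adjustment (0% of all genes), while 4 of the 10, all higher, had an unadjusted p under 0.05 (STAT3, IL6R, LIFR and SOCS3), where 6.87% of all genes did. In 6 of the 10 the samples lay above control without overlap, where 40.5% of all genes did not overlap in either direction. With sh-MIR100HG-2, 0 of the 10 were called after adjustment (0% of all genes). An unadjusted p under 0.05 was found for 4 of the 10, with STAT3, IL6R and SOCS3 higher and JAK2 lower, where 8.86% of all genes had one. Of the 10, 6 lay above and 2 (JAK2 and PIAS3) below control without overlap, where 38.5% of all genes did not overlap. IL6R stood at 3.15-fold the control level with sh-MIR100HG-1 (log2FC 1.66 ± 0.32 SE) and at 4.80-fold with sh-MIR100HG-2 (log2FC 2.26 ± 0.32 SE). Both likelihood ratio and DESeq2 tests called 1 of the 10, IL6R, with each shRNA, beside 34 and 66 genes called in all with sh-MIR100HG-1 and 121 and 167 with sh-MIR100HG-2. Without a filter, 1 of the 10 (IL6R) was called with sh-MIR100HG-1, where 227 of 21349 genes were called, and 2 (IL6R and STAT3) with sh-MIR100HG-2, where 517 were.

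**Figure D3:**
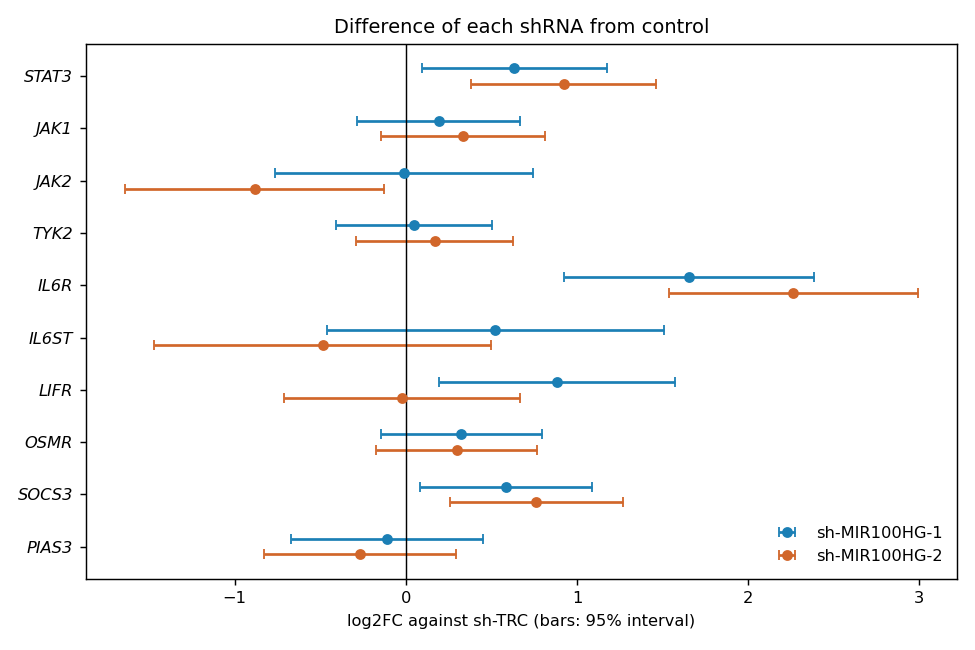
The log2FC of each gene against sh-TRC for each hairpin (horizontal axis; blue for sh-MIR100HG-1, orange for sh-MIR100HG-2), where points are the edgeR estimates and bars are 95% intervals. The intervals of STAT3, IL6R and SOCS3 lie above 0 with both shRNAs, that of LIFR with sh-MIR100HG-1 alone, and that of JAK2 lies below 0 with sh-MIR100HG-2 alone, before any adjustment for the number of genes.

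A direct test of whether the effects of the shRNAs differed set the samples with sh-MIR100HG-2 against those with sh-MIR100HG-1. The quasi-likelihood test called 0 of the 10 after adjustment (0% of all genes), and 3 of the 10 had an unadjusted p under 0.05, all lower with sh-MIR100HG-2, where 9.45% of all genes had one. These were LIFR (log2FC -0.90 ± 0.30 SE, adjusted p = 0.509), JAK2 (log2FC -0.87 ± 0.33 SE, adjusted p = 0.509) and IL6ST (log2FC -1.01 ± 0.43 SE, adjusted p = 0.521). LIFR and IL6ST were nearest to 0 without sh-MIR100HG-1 replicate 2, at -0.53 and -0.42, and JAK2 without sh-MIR100HG-2 replicate 2, at -0.54. As each library was left out, the far ends were -1.19, -1.42 and -1.30. Of the 10, 3 lay above and 3 below without overlap, where 43.9% of all genes did not overlap. For STAT3 the log2FC between the shRNAs was 0.29, with a 95% interval from -0.25 to 0.83, and for IL6R it was 0.61, with an interval from -0.11 to 1.33. Both intervals hold 0. Without a filter on low counts, 1 of the 10, IL6ST, was called between the shRNAs (adjusted p = 0.00605, edgeR quasi-likelihood), where 679 of 21349 genes were called.

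Around the 10 genes, 70 further genes of the pathway were listed by role, of which 63 passed the filter. After adjustment 0 of them was called in any of the 4 comparisons by the quasi-likelihood test. Over both shRNAs, edgeR's likelihood ratio test and DESeq2 also called 0 of them. With sh-MIR100HG-2 alone these tests called 2 (ICAM1 and PIAS4) and 3 (these and CEBPD), of 121 and 167 genes called in all. Between the shRNAs they called 3 (EBI3, FOS and ICAM1) and 2 (EBI3 and ICAM1), of 91 and 103 genes in all. With sh-MIR100HG-1 alone they called 0. Without a filter on low counts, the quasi-likelihood test called 2 (FOS and ICAM1) over both shRNAs, 2 (FOS and TIMP1) with sh-MIR100HG-1, 5 (CEBPD, EBI3, FOS, ICAM1 and PIAS4) with sh-MIR100HG-2 and 4 (EBI3, FOS, ICAM1 and TIMP1) between the shRNAs. Genes in these counts outside the rule for naming were named after their values were seen. Over both shRNAs, 8 of the 63 had an unadjusted p under 0.05, 5 higher and 3 lower, where 7.68% of all genes had one. Of the 63, 7 lay above and 4 below control without overlap, where 17.5% of all genes did not overlap, and the median log2FC was 0.03. Each of the 8 had an unadjusted p above 0.05 (edgeR quasi-likelihood) in at least 1 of the fits that left out a library. In all, 7 listed genes were too low to test: the ligands OSM and IL27, the receptors CNTFR, IL10RA and CSF3R, the phosphatase PTPRT and the target TWIST1.

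The ligands were present in the same cells. Of 8 ligand genes tested, 0 had an unadjusted p under 0.05 over both shRNAs, and their median log2FC was 0.04. With each shRNA alone and between the shRNAs, 1 of the 8 did. EBI3, a subunit of interleukin-27 named after its values were seen, had a log2FC of 1.70 with sh-MIR100HG-2 (unadjusted p = 0.0174, edgeR quasi-likelihood). Between the shRNAs it stood at 20.1 and 7.09 CPM with sh-MIR100HG-2 against 1.58 and 3.26 CPM with sh-MIR100HG-1 (unadjusted p = 0.00273, edgeR quasi-likelihood). IL6, the ligand of IL6R, stood at 635 and 243 CPM in control, 364 and 602 CPM with sh-MIR100HG-1, and 401 and 402 CPM with sh-MIR100HG-2. The control samples spanned the knockdown samples. LIF, the ligand of LIFR, ran from 100.3 to 149.7 CPM with overlapping groups. IL11, a ligand that also signals through gp130, had the smallest p of the list (log2FC -0.41, unadjusted p = 0.0541, edgeR quasi-likelihood), and its 4 knockdown samples, from 74.4 to 99.2 CPM, lay below the control samples at 128.4 and 100.3 CPM. Without control replicate 1 its log2FC was -0.22 (unadjusted p = 0.359, edgeR quasi-likelihood). With sh-MIR100HG-1 alone it was -0.60 (unadjusted p = 0.0217, edgeR quasi-likelihood).

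Of 10 other receptors that signal to STAT3, 1 had an unadjusted p under 0.05. This was IL31RA, which pairs with OSMR to form the interleukin-31 receptor. It stood at 22.3 and 18.7 CPM in control, 25.2 and 36.0 CPM with sh-MIR100HG-1 and 37.6 and 35.0 CPM with sh-MIR100HG-2, a log2FC of 0.70 ± 0.22 (SE, adjusted p = 0.554, edgeR quasi-likelihood). Its knockdown samples lay above both control samples. The other receptors of this list had a median log2FC near that of all genes, -0.07 with IL31RA included.

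Of the 7 other STAT and JAK genes, 1 had an unadjusted p under 0.05, STAT2, which carries type I interferon signals. It stood at 138 and 159 CPM in control, 114 and 77.6 CPM with sh-MIR100HG-1 and 128 and 91.7 CPM in the sh-MIR100HG-2 group (log2FC -0.54, unadjusted p = 0.0454, edgeR quasi-likelihood). Each of the 4 samples with knockdown lay below control, the opposite direction to STAT3. The median log2FC of these 7 genes was -0.10.

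Among 14 other inhibitors, 3 had an unadjusted p under 0.05. PIAS4, of the same family as PIAS3, stood at 37.9 and 49.9 CPM in control, 58.5 and 58.7 CPM with sh-MIR100HG-1 and 81.7 and 93.6 CPM with sh-MIR100HG-2, a log2FC of 0.71 with no overlap with control. SOCS7, of the SOCS family, had a log2FC of 0.59, with control at 27.7 and 26.8 CPM and knockdown samples between 31.7 and 51.8 CPM. PTPN6, the phosphatase SHP-1, which acts on Janus kinases mainly in blood cells, was lower in each knockdown sample, with control at 7.22 and 9.48 CPM, knockdown samples between 4.18 and 5.27 CPM and a log2FC of -0.85. The adjusted p of all 3 missed the threshold, and the list's median log2FC was 0.01.

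The textbook target genes of STAT3 did not move together. Of 24 tested, 2 were higher and 1 lower at an unadjusted p under 0.05, with a median log2FC of 0.08. ICAM1, a cell adhesion molecule, stood at 239 and 265 CPM in control, 215 and 363 CPM with sh-MIR100HG-1, and 1102 and 662 CPM with sh-MIR100HG-2. The samples with sh-MIR100HG-1 lay on either side of the control samples (log2FC 0.20, with a 95% interval from -0.53 to 0.93). Those with sh-MIR100HG-2 lay far above control (log2FC 1.81). The direct comparison of the shRNAs for ICAM1 gave an unadjusted p = 0.00101 (adjusted p = 0.509, edgeR quasi-likelihood). CEBPD, a transcription factor of inflammation, had a log2FC of 0.62 over both shRNAs, with control at 38.9 and 32.7 CPM, sh-MIR100HG-1 at 37.9 and 48.6 CPM and sh-MIR100HG-2 at 73.8 and 65.3 CPM. MUC1, a surface mucin, had a log2FC of -0.75, with control at 18.4 and 35.1 CPM and knockdown samples between 12.2 and 18.5 CPM. Without control replicate 2 its log2FC was -0.21.

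**Figure D4:**
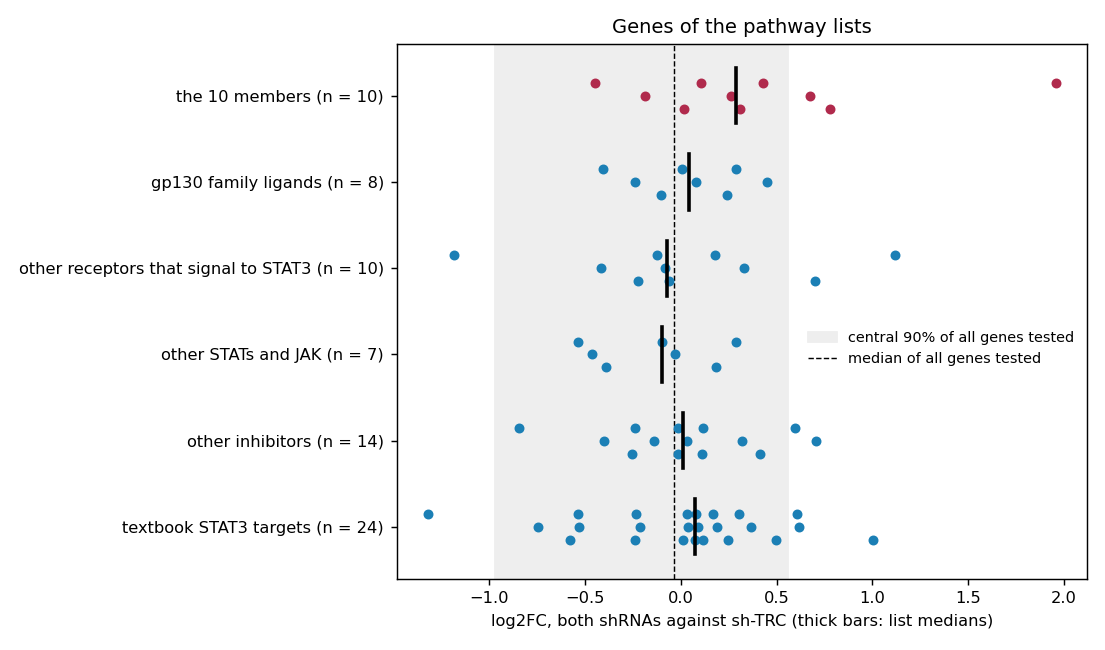
The log2FC over both shRNAs against sh-TRC (horizontal axis) of the 10 genes and of the genes tested in each pathway list, with thick bars at list medians, a dashed line at the median of all genes tested and a grey band over the central 90% of them. The band runs from -0.97 to 0.56, the median of the 10 genes lies at 0.29, and the list medians lie between -0.10 and 0.08.

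Activated STAT3 binds DNA at the palindrome TTCNNNGAA, which reads the same on both strands. In promoters taken as the 250 bases before and 50 bases after each gene's start (RefSeq, GRCh38.p14), it occurred in 7.66% of 35116 promoters and in 6.53% of the 11723 promoters matched to genes tested. All 10 members were matched, and 1 of them held it, LIFR. For each gene matched a single start was searched, so a site outside this window or at another start would be missed. Of 15 target genes matched, 4 held it, BCL6, IRF1, LRG1 and ICAM1. The stretches of LIFR and ICAM1 are shown because the level of both genes differed between the shRNAs at an unadjusted p under 0.05, with the motif in capitals.
LIFR (chr5:38595552-38595580, minus strand, GRCh38.p14): ccattactagTTCCTTGAAccacaatcca
ICAM1 (chr19:10271035-10271063, plus strand, GRCh38.p14): ggcgcgaggtTTCCGGGAAagcagcaccg
The motif lay at bases -165 to -157 from the start of LIFR and at -75 to -67 from that of ICAM1. Between the shRNAs these genes went opposite ways, LIFR lower and ICAM1 higher with sh-MIR100HG-2. No binding was measured.

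The genes whose log2 CPM over the 6 samples was most like that of STAT3, among 12556 genes with a mean of at least 1 CPM, were STK40, RAB5B and DYNLL2, with correlations of 0.997, 0.997 and 0.996. STK40 stood at 112 and 142 CPM in control, 192 and 258 CPM with sh-MIR100HG-1 and 244 and 330 CPM with sh-MIR100HG-2, the same order of samples as STAT3. These correlations rest on 6 samples, and 175 of the 12556 genes had one above 0.95. In bulk RNA, fewer cells with a transcript and less of it per cell cannot be told apart, and this holds for every level given here.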

How the data were processed

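RNA was sequenced in 6 libraries, and the authors deposited whole-number counts of reads per gene without normalization. By the study's methods, reads were mapped to GRCh37 with STAR (2.4.2a; the submitters' processing notes name 2.5.2a), and featureCounts (1.4.6-p5) assigned them to exons grouped into genes. Strand setting and treatment of reads mapping to several places are not given in the sources used here.

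The counts were tested with edgeR 4.0.16 in R 4.3.3. A gene was dropped where 3 or more of the 6 samples had under 5 counts, the study's own filter (12373 of 27745 genes). After TMM normalization, the 3 groups were fitted in a single quasi-likelihood model (3 residual degrees of freedom, a prior of 5.37, common biological coefficient of variation 27.8%), since each group had 2 samples. The study's methods name the quasi-likelihood method but give the function of the likelihood ratio test (glmLRT), so the main test here may not be the study's. Benjamini-Hochberg adjustment ran over the 15372 genes tested, with calls at 0.05. CPM are TMM-normalized, log2 values use a pseudocount of 0.125 CPM, and 95% intervals come from the moderated standard errors. Replicates were used as separate samples, and sampling error is small beside their spread except in genes with few counts. Alternatives were the likelihood ratio test, DESeq2 1.42.0, other size factors, no filter, replicate blocks, the bias-adjusted fit and leaving out each library. Seed and promoter matches were found with Python 3.11.15, seeds in the 3′UTR of each gene's canonical transcript in a later GENCODE release than the one counted. The test was also run on data simulated with independent samples, so that run does not cover the likeness between libraries described above.

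The 10 genes, the pathway lists and the markers were chosen with earlier results of these data known. Named from the lists were genes with an unadjusted p under 0.05 over both shRNAs and, in a list without any, the gene with the smallest p. EBI3, IL6, LIF, FOS and TIMP1 were named after their values were seen.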

Additional observations from a re-analysis of the deposited data

How the results depend on the processing

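At an adjusted p at or below 0.05, the members called numbered 0 in all 4 comparisons. Over both shRNAs they numbered 1 with the likelihood ratio test, 1 with DESeq2 and 2 without a filter. With sh-MIR100HG-1 they numbered 1, 1 and 1, and with sh-MIR100HG-2 they numbered 1, 1 and 2. Between the shRNAs they numbered 0, 0 and 1. Without a filter more genes were tested, 21349; the cause was not tested. Leaving out each library in turn, other size factors, the bias-adjusted fit and the replicate block called 0 members in each comparison.

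At an unadjusted p under 0.05, leaving out each library gave 1 to 4 members with sh-MIR100HG-1 (lowest without its replicate 2), 2 to 5 with sh-MIR100HG-2 (lowest without control replicate 1), and 1 to 3 between the shRNAs (lowest without sh-MIR100HG-1 replicate 2 or either sh-MIR100HG-2 sample). Over both shRNAs it gave 3 to 4, but without control replicate 1 SOCS3 no longer counted and LIFR did. In each of these comparisons, the number of all genes tested that met this mark also changed with the library left out. The changes in the member counts are therefore not read as particular to the pathway.

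Signs turned for some members. Leaving out each library, the log2FC of IL6ST ran from -0.48 to 0.78 over both shRNAs, from -0.052 to 1.28 with sh-MIR100HG-1 and from -0.98 to 0.28 with sh-MIR100HG-2. With sh-MIR100HG-1, JAK2 ran from -0.22 to 0.23 and PIAS3 from -0.36 to 0.10. With sh-MIR100HG-2, LIFR ran from -0.31 to 0.35, and it was 0.0164 with DESeq2 and 0.0164 with RLE size factors. Between the shRNAs, JAK1 ran from -0.029 to 0.29, OSMR from -0.16 to 0.10 and PIAS3 from -0.36 to 0.095.

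Over 12557 genes, deviations of same-numbered samples correlated at 0.590 between the shRNA groups, but at -0.230 for control and sh-MIR100HG-1 and 0.0573 for control and sh-MIR100HG-2, so the numbers were not taken to pair the samples. Between the shRNAs, the replicate block gave 3 members at an unadjusted p under 0.05, beside 2016 of 15372 genes. It called 0 genes there after adjustment. With the replicate block, JAK2 had a log2FC of 0.00205 with sh-MIR100HG-1, 0 genes were called over both shRNAs and no call on a member changed after adjustment. A block with the control numbers crossed, chosen after seeing the data, also called 0 genes, and LIFR had 0.0200 with sh-MIR100HG-2.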

Other observations

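FOS, an early-response gene on the list of STAT3 targets, was chosen after its values were seen. It stood at 182 and 3.06 CPM in the control samples, 252 and 242 CPM with sh-MIR100HG-1, and 4.23 and 6.83 CPM with sh-MIR100HG-2. Control replicate 1 lay near the samples with sh-MIR100HG-1 and control replicate 2 near those with sh-MIR100HG-2, so its log2FC over both shRNAs was -1.32 ± 1.03 (SE, adjusted p = 0.801, edgeR quasi-likelihood). TIMP1, a protease inhibitor on the same list, was low where FOS was high. It stood at 390 and 1037 CPM in control, 333 and 309 CPM with sh-MIR100HG-1, and 951 and 566 CPM with sh-MIR100HG-2, and it too was named after its values were seen. The part of library differences in these values was not tested.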
